A study of Mus musculus with 18 samples.

Results

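Accessible chromatin was mapped at 8 genes of the hypoxia pathway in mouse bone marrow-derived macrophages (BMDMs), out of 21938 protein-coding genes in the annotation. The genes were Hif1a, Epas1, Arnt, Egln1, Egln3, Vhl, Vegfa and Bnip3, taken by name, and the rule for their entries used position alone, although the list was drawn up with earlier results of these data known. For each gene, all entries were taken that overlapped the gene body or the 50 kb to each side of its most upstream annotated start site (GENCODE M21, mm10). This gave 65 of 82391 reference peaks, 65 of 84660 summits and 47 of 59617 extended regions. A reference peak is a stretch of accessible chromatin, a summit is its point of highest signal with a score, and an extended region is the same stretch widened and joined with close neighbours.

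The assay was ATAC-seq, in which the transposase Tn5 inserts sequencing adapters into open chromatin. BMDMs came from wild type male C57/BL6 mice of 6 to 8 weeks. All cells, controls included, were first exposed to DMSO (the solvent used for inhibitors) for 1 h. The 18 libraries formed 9 groups of 2, namely untreated cells (UT), cells given 10 ng/ml lipopolysaccharide (LPS) and cells given 10 ng/ml interleukin 4 (IL4), each stimulus for 30 min, 1 h, 2 h or 4 h. No library was made under low oxygen according to the labels. The 3 lists used here hold a single merged set over all libraries, without a column per library. A difference between stimuli, time points or replicates, the depth of a library and the spread of a value were therefore not analysable, and no test was made. In these bulk samples, more cells with an open site and more insertions per cell cannot be told apart. Of 8 macrophage markers, 8 had a peak within 1000 bp of a start site, with scores from 1176 at Csf1r to 2021 at Cd68. Of 8 markers of other cell types, 4 had one as well (Col1a1 613, Cdh5 1721, Pecam1 1345 and Gfap 934), while Cd3e, Ly6g and Epcam were among those that had none.

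Hypoxia-inducible factors (HIFs) are transcription factors made of an oxygen-labile alpha subunit and the stable partner ARNT. In the presence of oxygen, prolyl hydroxylases of the EGLN family modify the alpha subunit, the VHL protein binds the modified form, and a ubiquitin ligase marks it for degradation. When oxygen falls, the alpha subunit persists and the dimer binds DNA at a short core, ACGTG or GCGTG, at target genes such as Vegfa and Bnip3. In macrophages, LPS is also known to induce Hif1a through NF-kB at normal oxygen.

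The loci differed in how many summits they held. Vhl had 24 summits, Hif1a and Egln1 had 9 each, Arnt had 7, Bnip3 had 5, Egln3 and Vegfa had 4 each, and Epas1 had 3. The median over all protein-coding genes was 6, with quartiles of 1 and 12, so that 7 members lay within the quartiles and only Vhl lay above them. At least as many summits as at Vhl were found at 4.74% of protein-coding genes, against 69.6% for Epas1. Many entries at Vhl lay closer to another gene. Of the 65 summits, 39 had a start site of the member itself as the nearest coding start site, and 17 of the 24 summits at Vhl were nearest to Irak2. Without Vhl, 41 reference peaks remained in the search windows.

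**Figure D1:**
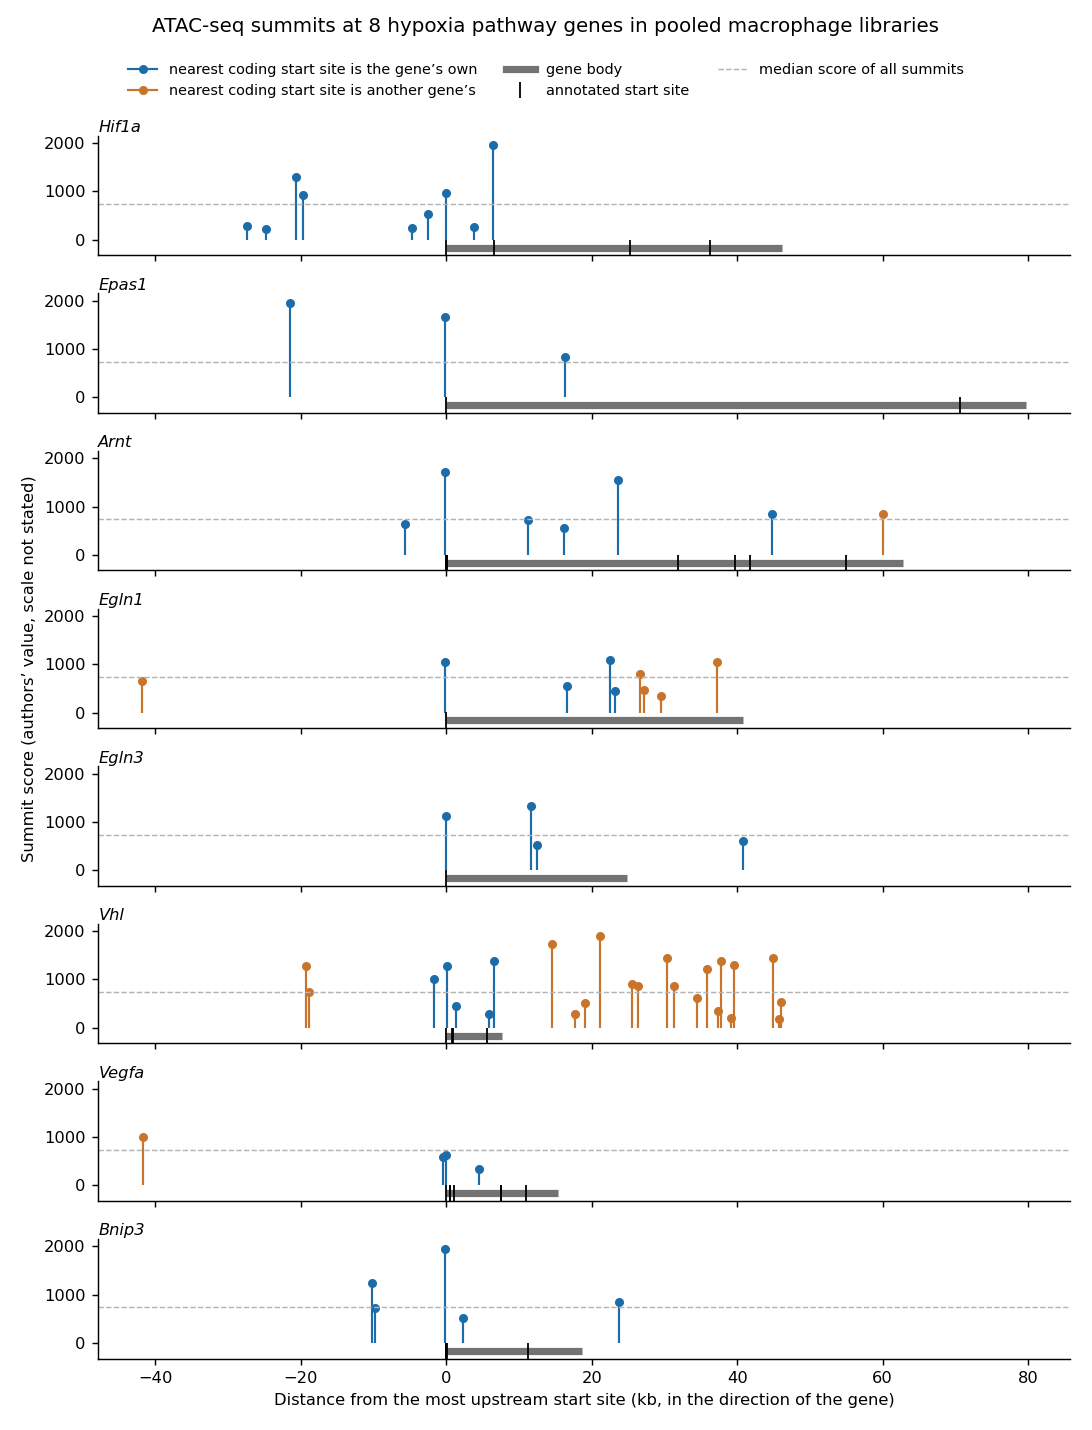
Each panel shows the summits of 1 gene by their distance from its most upstream start site (x axis, kb, in the direction of the gene) and their score (y axis, the authors' value on an unstated scale). Blue stems are nearest to a start site of the gene itself and orange stems to one of another coding gene, the grey bar is the gene body with start sites as black ticks, and the dashed line marks the median score of all summits, 737.

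**Figure D2:**
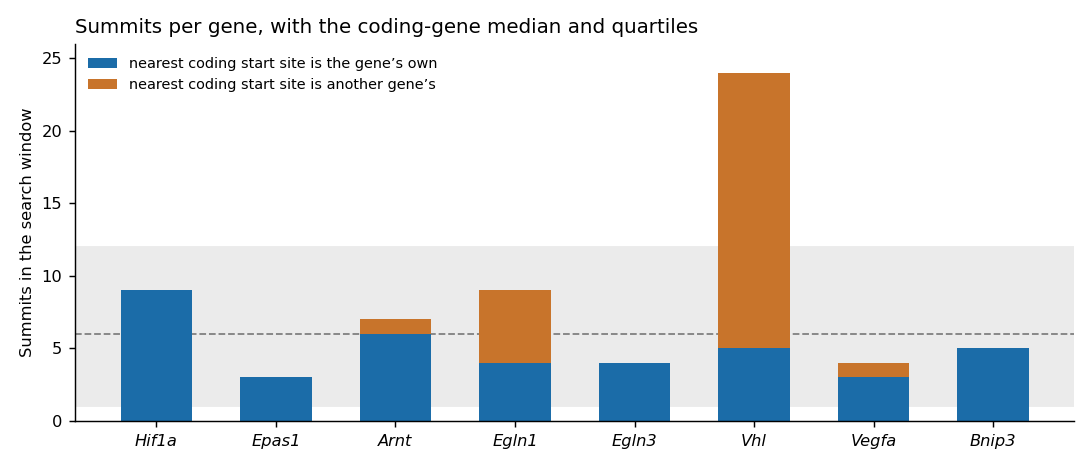
Bars give the number of summits in the search window of each gene, split by whether the nearest coding start site is the gene's own (blue) or another gene's (orange). The dashed line is the median of 6 over all protein-coding genes and the grey band spans the quartiles of 1 and 12. Only the bar of Vhl, at 24, rises above the band.

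Each of the 8 members had a start site peak, meaning a reference peak no more than 1000 bp from any of its annotated start sites, against 56.5% of protein-coding genes. The strength of these peaks was uneven. By the best score at a start site, the order from high to low was Hif1a (1955), Bnip3 (1942), Arnt (1721), Epas1 (1670), Vhl (1381), Egln3 (1117), Egln1 (1048) and Vegfa (634). Over the 12321 protein-coding genes with such a summit the quartiles were 1071, 1456 and 1799. The 3 HIF subunits and the target Bnip3 thus stood above the median, and both hydroxylases, Vhl and the target Vegfa below it. Whether neighbours in this order differ cannot be said, since the values have no spread over libraries. Of the 34 annotated start sites of the 8 genes, 22 had a peak within 1000 bp. These sites are not all separate, since a single peak covered 5 start sites of Arnt and another covered 4 of Bnip3. No share over all annotated start sites is available for comparison.

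The width of the peak holding the best summit followed a similar order. It was 639 bp at Bnip3, 523 bp at Hif1a, 492 bp at Epas1, 483 bp at Arnt, 350 bp at Vhl, 307 bp at Egln1, 292 bp at Egln3 and 199 bp at Vegfa, with a median of 356 bp over protein-coding genes with a start site summit. At 7 of 8 members the best summit lay upstream of the nearest own start site, by 30 bp at Egln3 to 179 bp at Epas1. The share was 75.1% over protein-coding genes with a start site summit.

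**Figure D3:**
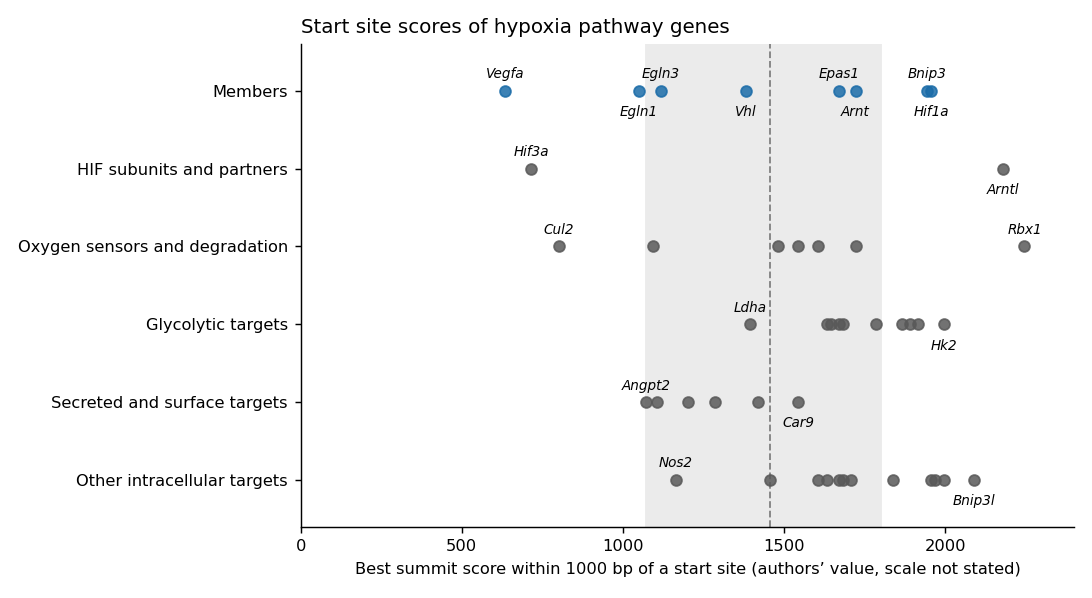
Each point is the best summit score within 1000 bp of a start site (x axis, the authors' value on an unstated scale), for the 8 members (blue) and for 37 other hypoxia pathway genes by function (dark grey). The grey band spans the quartiles of all protein-coding genes with a start site summit, 1071 to 1799, and the dashed line is their median, 1456. Vegfa, at 634, is the lowest point of all.

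Among the HIF subunits, Hif1a encodes the subunit HIF-1 alpha. Its accessible sites were gathered at the 5′ end. The highest score, 1955, was at the second annotated start site, in a peak of 523 bp at chr12:73907521-73908043, and 85.9% of protein-coding genes with a start site summit scored at or below it. A narrower peak of 218 bp with a score of 968 covered the most upstream start site, 6478 bp before the stronger summit. The other 2 start sites had no peak within 1000 bp, and no summit lay in the gene body beyond the second start site, although the gene is 46156 bp long. Both start site summits had a HIF core on the strand of the gene. The upstream one carried the longer element TACGTG, which combines the core with the flanking base preferred at many hypoxia response elements. These sequences, read 5′ to 3′ from the plus strand of GRCm38.p6 (mm10), are shown because they place a HIF core at the start of a HIF gene, and the capitals mark the match. They span chr12:73901254-73901374 and chr12:73907753-73907866.
Hif1a, upstream start: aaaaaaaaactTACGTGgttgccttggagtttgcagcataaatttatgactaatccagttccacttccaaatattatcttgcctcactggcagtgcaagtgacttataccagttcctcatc
Hif1a, stronger start: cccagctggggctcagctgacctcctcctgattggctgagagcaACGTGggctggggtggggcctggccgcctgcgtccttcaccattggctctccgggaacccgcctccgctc

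The remaining 7 summits of Hif1a scored 226 to 1308. Of these, 6 lay upstream in introns of the non-coding gene Gm15283. The best was 20709 bp upstream, with a score of 1308 that 87.8% of distal summits did not exceed, and none of the 12 motifs searched was found within 100 bp of it. Distal here means more than 1000 bp from any annotated start site, of coding or non-coding genes.

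Epas1 encodes HIF-2 alpha, the second oxygen-labile subunit, and had the fewest summits. Each of the 3 scored above the median of all summits, 737. The start site summit scored 1670, and the intronic one, 16374 bp into the gene, scored 845. The third lay 21434 bp upstream of the gene in intergenic sequence, in a peak of 337 bp at chr17:86732101-86732437, and reached 1955. That was higher than the score at the start site itself, and 99.4% of all 59886 distal summits scored at or below it. It was the highest distal score among the members. Within 100 bp it held an ACGTG core, the letters GAGGAAGT of the PU.1 consensus (PU.1 being a main transcription factor of macrophages), and 2 matches to the SP/KLF box GGGCGG. Its sequence, chr17:86732166-86732366 on the plus strand of GRCm38.p6 (mm10), was chosen after its score was seen, and the capitals mark the HIF core, which reads in reverse complement.
Epas1, upstream summit: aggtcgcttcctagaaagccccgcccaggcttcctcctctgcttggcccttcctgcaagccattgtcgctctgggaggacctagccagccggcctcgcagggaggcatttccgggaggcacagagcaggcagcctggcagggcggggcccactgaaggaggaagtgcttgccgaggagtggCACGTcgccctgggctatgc

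Arnt encodes HIF-1 beta, the shared partner of both alpha subunits. Its start site peak of 483 bp covered 5 of 9 annotated start sites and its summit scored 1721. Of the other 6 summits, 4 lay in introns, 1 in a coding exon and 1 in an exon of the non-coding gene Gm4349 5725 bp upstream. The intronic scores were 727, 563, 1543 and 845. The summit of 1543 lay 23554 bp into the gene, held an ACGTG core, and stood at or above 94.1% of distal summits. The coding exon summit, 60091 bp into the gene, scored 856, and its nearest coding start site was that of Ctsk, 4777 bp away. TACGTG lay 95 bp from this summit. This match lay outside its reference peak but inside the extended region. At the start site a GCGTG core was present. The window at the start, chr3:95434181-95434381, is printed from the plus strand of GRCm38.p6 (mm10), with the core in capitals.
Arnt, start: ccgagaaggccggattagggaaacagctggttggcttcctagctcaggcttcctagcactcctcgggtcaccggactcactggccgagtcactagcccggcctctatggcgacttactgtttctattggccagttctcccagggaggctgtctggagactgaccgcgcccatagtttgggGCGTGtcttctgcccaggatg

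Of the genes that sense oxygen or lead to degradation, Egln1 encodes PHD2, the main hydroxylase acting on HIF alpha at normal oxygen. Its start site summit scored 1048, and 24.3% of protein-coding genes with a start site summit scored at or below it. The window of 100 bp to each side of this summit had a GC content of 85.6% and held 5 SP/KLF boxes and 1 GCGTG core. TACGTG was found 3 bp into the gene, inside the start site peak of 307 bp and 121 bp from the summit. The 30 bases around it, chr8:124949306-124949335, are given from the minus strand of GRCm38.p6 (mm10), the strand of the gene, because the element falls inside the start site peak.
Egln1, start: ggggccgtggtgTACGTGcagcgcgcgcgg

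Of the 8 other summits of Egln1, 7 lay in introns and 1 lay at -41770 bp, upstream of the gene. Their scores ran from 349 to 1094. The intronic maximum of 1094, 22460 bp into the gene, exceeded the start site score. At 2 intronic summits, with scores of 448 and 544, the core was part of the E-box CACGTG, a palindrome that counts as ACGTG on both strands and is also read by other basic helix-loop-helix factors. Another 4 intronic summits were nearer to the start site of Sprtn than to that of Egln1, and 1 of these, with a score of 791, lay to 89.6% in repeat sequence. Sprtn, a DNA repair protease gene, had its own start site score of 1224.

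Egln3 encodes PHD3, a hydroxylase that is itself a HIF target. Its start site summit, 30 bp upstream, scored 1117 and had no HIF core within 100 bp. Each of its 3 distal summits had one, beside 21.2% of all distal summits. The best was intronic, 11677 bp into the gene, in a peak of 284 bp at chr12:54192023-54192306. It scored 1320, above the start site and at or above 88.2% of distal summits, and held TACGTG 69 bp from the summit inside the reference peak. A second intronic summit in the same extended region scored 524 and had 2 GCGTG cores, as did the summit of 603 at 40840 bp, beyond the end of the gene. The intronic window, chr12:54192083-54192283 on the minus strand of GRCm38.p6 (mm10), is shown since it holds the highest scored distal TACGTG match of the members. The capitals, CACGTA, are the element in reverse complement.
Egln3, intron: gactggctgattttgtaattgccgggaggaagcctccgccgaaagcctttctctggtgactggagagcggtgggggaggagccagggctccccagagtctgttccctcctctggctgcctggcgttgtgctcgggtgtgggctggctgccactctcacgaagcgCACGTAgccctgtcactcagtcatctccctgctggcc

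Vhl encodes the substrate receptor of the ubiquitin ligase. The peak at its most upstream start site was 432 bp wide, with a summit score of 1272 at 116 bp downstream, 1 ACGTG core and 3 GCGTG cores. The highest score counted at a start site, 1381, lay 978 bp from an internal start site in an untranslated exon, so that it stands close to the limit of 1000 bp. Between them were summits of 458 and 290. Upstream, a summit 1641 bp before the gene scored 1002. All 4 start sites had a peak within 1000 bp. The rest of the window belonged to a dense neighbourhood that holds starts of Brk1, Fancd2, Fancd2os and Irak2. Brk1, a subunit of the WAVE actin regulator, had a start site score of 1272, Fancd2, a DNA crosslink repair gene, had 1013, and Fancd2os had no start site peak.

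Of the HIF targets, Vegfa encodes the main angiogenic growth factor. It had the weakest start of the 8 genes. The summit 40 bp upstream scored 634, and 7.05% of protein-coding genes with a start site summit scored at or below that. Its peak was 199 bp wide, narrower than at the other members, and 10.1% of protein-coding genes with a start site summit had one as narrow or narrower. A second peak with a summit at 494 bp upstream scored 593 and had 3 GCGTG cores, whereas the summit nearest to the start had no HIF core. The other summits were an intronic one of 341 and one of 1002 at -41746 bp, upstream of the gene, whose nearest coding start site was that of Mrps18a, 36871 bp away. A hypoxia response element with a TACGTG core is well described in the upstream promoter of mammalian VEGFA. Whether any match given here is that element was not tested. Of the 14 TACGTG matches in the Vegfa window, the nearest one upstream of the most upstream start site lay at -930 bp and 433 bp from the closest summit, inside an extended region of 2016 bp but in no reference peak. Inside the gene, matches lay closer to an internal start site, at 218 and 310 bp, in no peak or extended region. Over the primary chromosomes, 0.975% of TACGTG matches lay in a reference peak. The 86 bases around the match at -930 bp, chr17:46033256-46033341 on the minus strand of GRCm38.p6 (mm10), are printed with TACGTG in capitals. They were chosen after the place of the match relative to the peaks was known.
Vegfa, upstream element: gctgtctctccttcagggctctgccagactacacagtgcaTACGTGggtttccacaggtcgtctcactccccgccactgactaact

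Bnip3 encodes a mitochondrial protein that promotes mitophagy. In contrast to Vegfa, its start site peak of 639 bp at chr7:138909355-138909993 was the widest of all 65 member peaks, and 91.4% of protein-coding genes with a start site summit had one as wide or narrower. Its score of 1942 at 130 bp upstream was matched or undercut by 85.1% of protein-coding genes with a start site summit. Around the summit lay an E-box CACGTG and 2 GCGTG cores within a few bases of each other. An intronic summit 2269 bp into the gene scored only 524 but had TACGTG next to it, 5 bp from the summit. Upstream, 2 summits in a shared extended region scored 716 and 1248, and a last one beyond the gene scored 856. The start and intron windows, chr7:138909549-138909749 and chr7:138907150-138907350, are given from the minus strand of GRCm38.p6 (mm10). They show a cluster of cores at a strong start and a single full element at a weaker site. The capitals mark the matches, and CACGC is GCGTG in reverse complement.
Bnip3, start: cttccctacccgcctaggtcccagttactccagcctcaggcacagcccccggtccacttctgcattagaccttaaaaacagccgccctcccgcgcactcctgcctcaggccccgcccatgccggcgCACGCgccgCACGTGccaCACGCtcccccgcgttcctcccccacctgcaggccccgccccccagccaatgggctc
Bnip3, intron: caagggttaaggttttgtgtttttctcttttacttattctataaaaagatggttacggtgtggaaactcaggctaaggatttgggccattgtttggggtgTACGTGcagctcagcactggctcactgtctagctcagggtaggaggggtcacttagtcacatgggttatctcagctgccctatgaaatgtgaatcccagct

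Across the 8 loci, summit scores were described against all summits of the same kind. The median of the 65 member summits was 845, with quartiles of 524 and 1272, and the median of all summits was 737, with quartiles of 486 and 1153. At the 21 member summits within 1000 bp of any start site the median was 1048, against 990 for all such summits. At the 44 distal member summits it was 818, against 664. Of the 65 summits, 34 lay in introns of coding genes, neighbours such as Irak2 included, and 16 in intergenic sequence. Another 8 lay in introns and 3 in exons of non-coding transcripts, 3 in untranslated exons and 1 in a coding exon. The search took whole gene bodies, and no share over all summits is available beside these counts. Repeats made up most of the window at 1 summit.

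HIF cores were counted as ACGTG or GCGTG on either strand within 100 bp of a summit. At start sites, 12 of 21 member summits (57.1%, 95% Wilson interval 36.5 to 75.5%) had one, against 45.4% of all such summits. At distal summits, 18 of 44 (40.9%, 27.7 to 55.6%) had one, against 21.2% of all distal summits. The intervals cover counting error only and treat summits of a locus as independent, which they are not. The distal windows of the members also differed in composition, with a median GC content of 50.2% against 48.3% and a median observed over expected CpG ratio of 0.239 against 0.188, and its part in the share was not tested. The number of summits with a core, at start sites and distal together, ran from 2 of 4 at Vegfa and 2 of 3 at Epas1 to 9 of 24 at Vhl, beside 28.3% of all summits. Distal cores were found at 3 of 3 summits of Egln3, 3 of 8 of Egln1, 2 of 5 of Arnt, 2 of 4 of Bnip3, 1 of 2 of Epas1, 1 of 2 of Vegfa, 5 of 13 in the Vhl window and 1 of 7 of Hif1a. Within 200 bp, the share at start sites was 61.9% against 63.1% of all such summits, so that its direction was reversed, whereas the distal share was 61.4% against 35.3%.

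The longer element TACGTG, each match of which is also an ACGTG match, was rarer. It was found at 1 of 21 start site summits, that of Hif1a, against 2.34% of all such summits. At distal summits it was found at 3 of 44, in the windows of Arnt, Egln3 and Bnip3, against 1.87%. The searched windows held 124 TACGTG matches in all. Of these, 5 lay in a reference peak (4.03%, where the peaks cover 1.88% of the bases) and 14 in an extended region (11.3%, where the regions cover 10.9%). Over the primary chromosomes the shares were 0.975% in reference peaks, which cover 0.8% of the bases, and 5.89% in extended regions, which cover 4.39%. The Epas1 window held 26 matches, more than any other member window, but it was also the longest, at 129711 bp. None of the 26 was in a peak or an extended region. Peaks covered only 0.861% of the bases of this window and extended regions 4.1%.

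Motifs of macrophage and signalling factors were searched in the same windows, and a match describes letters, not binding. The AP-1 site TGANTCA was found at 15.9% of distal member summits (7.93 to 29.4%), against 23.6% of all distal summits. The PU.1 site GAGGAAGT was found at 13.6% (6.4 to 26.7%), against 10.7%, and the C/EBP site TTGCNNAA at 13.6%, against 13.1%. At start sites, NF-kB matches were found at 3 of 21 member summits (14.3%, 4.98 to 34.6%), against 5.08%. These were the start of Vegfa and 2 summits at internal starts of Irak2 in the Vhl window. Neither Hif1a summit at a start site had one. The CRE TGACGTCA was found at 2 of 44 distal member summits (4.55%, 1.26 to 15.1%), 1 at Hif1a with a score of 534 and 1 in Irak2, against 0.489% of all distal summits. Distal shares of the IRF consensus (4.55% against 3.99%), the STAT6 consensus (6.82% against 7.81%) and the E-box (4.55% against 3.78%) lay close to those of all distal summits, as did that of the SP/KLF box at start sites (42.9% against 43.3%). The interval of the members held the share of all summits for AP-1, PU.1 and C/EBP at distal sites and for NF-kB at start sites.

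**Figure D4:**
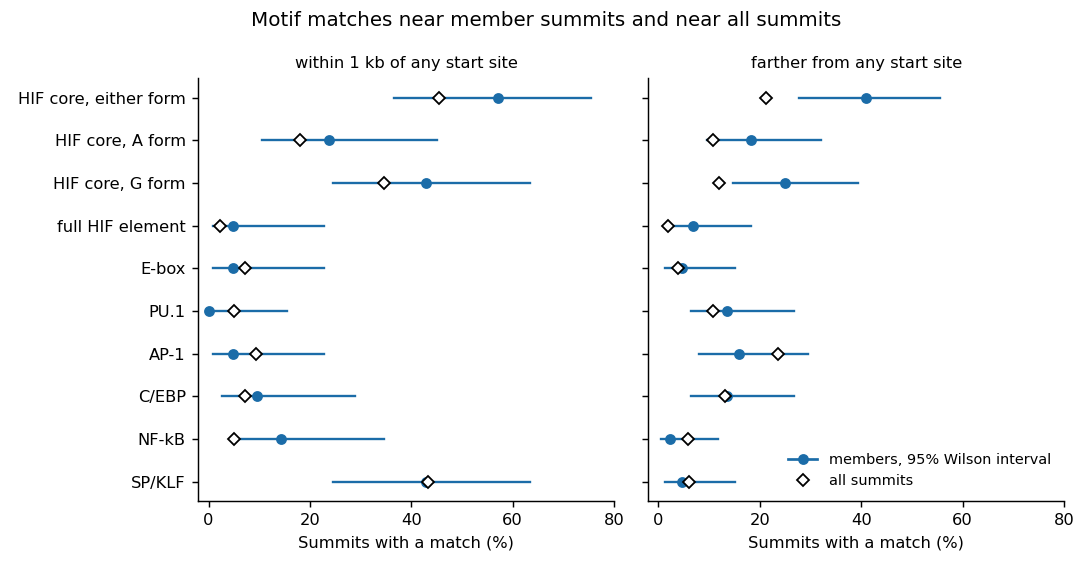
Blue points give the share of member summits with a motif within 100 bp (x axis, %), with 95% Wilson intervals for counting error, and diamonds give the share over all summits, for summits within 1 kb of any start site (left, 21 member summits) and farther away (right, 44). The A form of the HIF core is ACGTG, the G form GCGTG and the full element TACGTG. The distal HIF core is at 40.9% for the members and 21.2% for all.

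The promoter table of RefSeq (GRCm38.p6, from 250 bases before to 50 after a start) was used as a view that does not depend on the peaks. It held 8 promoters of 7 members, with 2 for Vegfa and no entry for Epas1. A HIF core was present in 6 of these, those of Hif1a, Arnt, Egln1, Egln3, Bnip3 and 1 of Vegfa, while 43.8% of all 32851 promoters had one. The Egln3 core lay outside the 100 bp around its summit. TACGTG was present in the Egln1 promoter alone, against 3.23% of all promoters.

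A list of 40 other genes of the pathway placed the members among their partners, sensors and targets. Of these, 37 (92.5%) had a start site peak, against 56.5% of protein-coding genes. This held for all 7 genes of oxygen sensing and degradation, all 10 glycolytic targets and all 12 other intracellular targets, for 6 of 8 secreted and surface targets, and for 2 of 3 subunits and partners. The 3 without one were Arnt2, the neuronal relative of Arnt, Adm, the peptide hormone adrenomedullin, and Car12, a carbonic anhydrase. Their nearest peaks were 2802, 2206 and 7589 bp from a start site. The median start site score of the 37 was 1644, with a range from 716 at Hif3a to 2245 at Rbx1, the RING subunit of the VHL ligase. The scores of Egln1, Egln3 and Vegfa lay below this median, as did that of Vhl. Among the genes with the most extended regions within 50 kb were the glycolytic enzyme gene Eno1 (13), followed by Hk2, Aldoa, Car9 and Slc16a3 with 12 each. Arnt2 had the fewest (1), followed by Cul2, the scaffold of the VHL ligase, and Kdm3a, a histone demethylase gene (2 each). These region counts stop at 50 kb and leave out the rest of a gene body. With the gene body included, Arnt2 had 9 summits, against a median of 6 over all protein-coding genes.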

How the data were processed

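ATAC-seq libraries were prepared by the authors and, per the study's methods, trimmed (Trimmomatic 0.39 in the submitters' processing notes), aligned to mm10 with ShortStack, filtered with SAMtools (1.9) and called with MACS2 (2.2.6), without local background and with duplicates kept, so that heights can include PCR copies. No Tn5 shift is named. Peaks passing a q-value in single libraries and overlapping between replicates were kept. The lists deposited by the authors hold positions and, for summits, a score, the authors' own value with no stated scale, used for rank and quartiles only. The lists give no values per library (and 0 columns of other samples), so depth, precision and replicates were not analysable.

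Here, entries were assigned by an overlap of 1 bp or more. Sequence came from GRCm38.p6 (the primary chromosomes of mm10, and all entries lay inside them on 21 of 21 chromosomes), genes from GENCODE M21 and promoters from RefSeq. Positions count from 1. The 12 motifs spelled or named in the text (including IRF, STAT6 and NF-kB consensus sequences) were searched as plain letters on both strands within 100 bp of every summit with Python 3.11.15, pandas 2.3.3 and pysam 0.24.0, in scripts checked on simulated data. Wilson intervals are at 95%. Named genes were the members, genes starting in their windows and, of the pathway list, those without a start site peak and those with the most and fewest extended regions. Summits described singly were the best at own start sites, the best elsewhere and those with TACGTG, beside others given for completeness. The Egln1 start and Vegfa upstream sequences and the Epas1 upstream sequence were added after their values were seen. The values of some listed genes are not reported here. Members, lists and motifs were chosen with earlier results of these data known.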

Additional observations from a re-analysis of the deposited data

How the results depend on the processing

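No paired analysis was possible because the lists carry no column per library, and for the same reason no replicate could be left out. A start site peak was found at 8 members with limits of 500 and 2500 bp, at the most upstream start site alone and for peaks that cover a start site, and at 7 with peaks holding a summit at or above the median score. The pathway list gave 32 to 38 genes of 40, and the share over all protein-coding genes was 49.8 to 59.9% under these settings. The 65 reference peaks became 43 with a 20000 bp window, 112 with 100000 bp, 30 in gene bodies alone, 36 with a summit at or above the median score, 39 nearest to a start site of the member, and 41 without Vhl. The median score of 845 became 985 for the best summit of each extended region (823 over all regions), 791 with 20000 bp, 867 with 100000 bp and 791 without Vhl. The HIF core share over all member summits, 46.2% (28.3% of all summits), was 29.2% within 50 bp (16.6%), 61.5% within 200 bp (43.4%) and 20% for ACGTG alone (12.9%). At start sites, 57.1% (45.4%) became 33.3% within 50 bp (28.6%), 76.9% for summits at or above the median score (50.6%), 23.8% for ACGTG alone (18%) and 80% without Vhl (45.4%), where 10 summits remained. At distal summits, 40.9% became 27.3% within 50 bp (11.7%), 61.4% within 200 bp (35.3%) and 18.2% for ACGTG alone (10.8%). Each alternative without Vhl, by nearest start site for scores and motifs, or for covering peaks was chosen after seeing the data. Depth is unknown, and the lists do not record in which conditions a site was open.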

Other observations

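The window of Vhl overlaps Irak2, which encodes a kinase of the Toll-like receptor pathway that transmits the LPS signal. Its start site lies 14508 bp from that of Vhl, and its start site summit scored 1734 with 1 GCGTG core. A summit in an intron of Irak2, 6526 bp from its nearest start site, scored 1890, and 99% of distal summits scored at or below it. It held an ACGTG core and the CRE TGACGTCA, which was found at 0.489% of all distal summits. An extended region of 6758 bp in an intron of Irak2 joined 6 summits with scores from 196 to 1381. This was the longest extended region in the member windows. Whether any of these sites belongs to Vhl, to Irak2 or to both cannot be read from position alone.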
